A study of Homo sapiens with 2 samples.

Results

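The genes described here encode the subunits of the nuclear RNA polymerases I, II and III, compared between MDA-MB-231 cells given an siRNA against HNRNPF and the same cells given a negative-control siRNA. They are the genes whose symbol in the deposited table begins with POLR1, POLR2 or POLR3 followed by a subunit letter. The rule found 36 of the 20323 genes in the table, and 35 of them reached 20 estimated counts in at least 1 of the libraries, as did 12270 genes in all. The remaining one, ENSG00000280778, carries the symbol POLR3GL and overlaps exons of POLR3GL and of LIX1L-AS1. It had 0 counts in both libraries.

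MDA-MB-231 is a human triple-negative breast cancer line, and HNRNPF is an RNA-binding protein that acts in splicing. Polyadenylated RNA was sequenced from 1 library of control cells and 1 library of HNRNPF siRNA cells, so no difference has a replicate check and no test between conditions was made. The labels name no other treatment, time or clone. HNRNPF itself had 6373 estimated counts in the control library and 2451 in the siRNA library, 38.8% of the control level after scaling. The libraries held 20654617 and 20134566 estimated counts. The mesenchymal markers VIM and CD44 were abundant, at 1723 and 174.6 FPKM in the control library. Of markers of luminal, T and endothelial cells, PGR and CD3E were at 0 counts in both libraries, ESR1 had 3 and 8 counts, and GATA3, EPCAM and PECAM1 had between 34 and 99.

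Polymerase I makes the large ribosomal RNA precursor in the nucleolus, polymerase II makes messenger RNA, and polymerase III makes transfer RNA and other small structured RNAs. Each enzyme has a catalytic core formed by its pair of largest subunits, an assembly pair that nucleates the core, a stalk that binds emerging RNA and a zinc-ribbon subunit that takes part in RNA cleavage. Some small subunits are built into every polymerase, and polymerases I and III share the assembly pair POLR1C and POLR1D. All of these subunits are encoded by messenger RNAs that polymerase II itself makes, and oligo(dT) selection measures those messengers, not the ribosomal or transfer RNA that the enzymes produce. In bulk RNA, fewer expressing cells and less RNA per cell cannot be told apart.

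Subunit messengers differed little between the libraries, and those of polymerase I and polymerase II lay slightly above those of polymerase III in their ratios. The log2 ratio of counts scaled to library size (CPM, HNRNPF siRNA over control) ran from -0.32 for POLR3GL to 0.36 for POLR2I. All judged genes ran from -0.45 at the 5th to 0.50 at the 95th percentile. Above 0 lay 22 subunits and below it 13, which is 62.9% above against 50.2% of all judged genes. The median was 0.11 over the subunits and 0.00 over all judged genes.

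No subunit was 1.5-fold higher or 1.5-fold lower, where 3.49% and 2.75% of all judged genes were. At least 1.2-fold higher were 4 of the 35 judged subunits (11.4%), against 14.9% of judged genes. At least 1.2-fold lower was 1 subunit (2.86%), against 12.7%. The share of higher subunits was thus near the background and the share of lower ones under it. The exact 95% interval of the ratio, which covers counting error only and not the spread between cultures, lay wholly above a ratio of 1 for 15 subunits (42.9%), against 21.4% of judged genes. It lay wholly below 1 for 5 subunits (14.3%), against 24.4% of judged genes. The judged genes reach down to 20 counts, where counting error is larger. Their median level in the control library was 12.4 FPKM, against 20.4 FPKM for the subunits. Shares among genes of similar level were not computed, so these contrasts may partly reflect level.

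**Figure D1:**
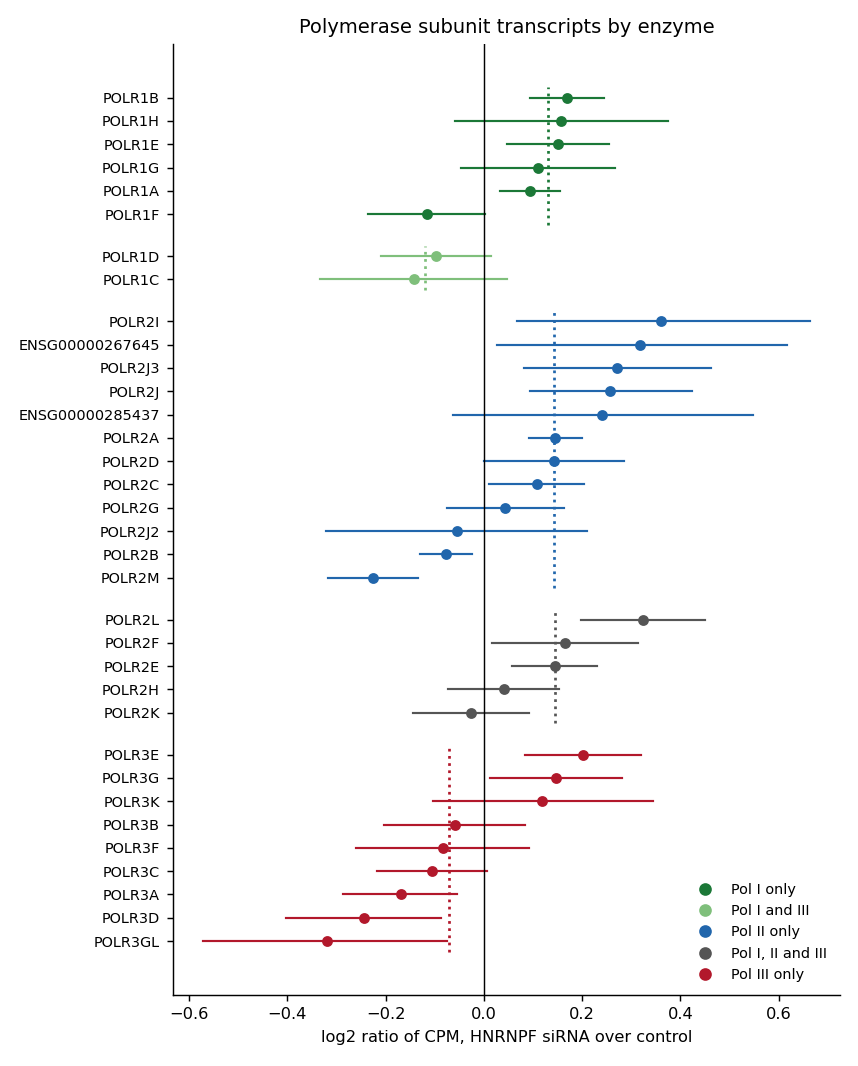
Log2 ratio of CPM (HNRNPF siRNA over control) for 34 judged subunits, grouped by enzyme, with 1 library per group; horizontal lines are exact 95% counting intervals and dotted vertical lines are the medians over all judged subunits of each enzyme. The polymerase I and II medians lie to the right of 0, at 0.13 and 0.14, and the polymerase III median lies to the left, at -0.07.

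Of the 6 subunits found only in polymerase I, 5 lay above 0 and 1 below, with a median of 0.13. Their summed counts were 10584 in the control and 11274 in the siRNA library, a log2 ratio of 0.10 (interval 0.06 to 0.14). The largest subunit POLR1A, which carries the active site together with POLR1B, had 4187 and 4432 estimated counts (0.09, interval 0.03 to 0.15). POLR1B had 2733 counts under control siRNA and 3050 under HNRNPF siRNA (0.17, interval 0.09 to 0.24). Both catalytic subunits were thus a little higher in the siRNA library, and their ratio to each other differed by -0.08 on the log2 scale, with an interval from -0.17 to 0.02 that includes no difference.

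POLR1E, which with POLR1G forms a pair related to the initiation factor TFIIF, had 1464 and 1613 counts (0.15, interval 0.05 to 0.25). POLR1G had 651 and 697 counts, and its interval from -0.05 to 0.27 includes 0. POLR1H, the zinc-ribbon subunit, had 336 counts under control siRNA and 372 under HNRNPF siRNA (0.16, interval -0.06 to 0.38). The stalk subunit POLR1F was the single polymerase I subunit below 0, with 1213 and 1110 counts (-0.12, interval -0.24 to 0.00). Its transcript had a GC content of 37.3%, the lowest of the polymerase I subunits.

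The assembly pair shared by polymerases I and III was lower in both members. POLR1C, the homologue of the larger partner, had 481 counts under control siRNA and 432 under HNRNPF siRNA (-0.14, interval -0.33 to 0.05). Its small partner POLR1D had 1349 and 1251 counts (-0.10, interval -0.21 to 0.01). Each interval includes 0, while that of the summed counts, 1830 and 1683, ran from -0.21 to -0.01 around a log2 ratio of -0.11.

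The 12 genes of polymerase II comprised 7 core subunits, 4 close relatives of POLR2J and the associated factor POLR2M, and 9 of the 12 lay above 0 with a median of 0.14. Over the 7 core subunits, 6 lay above 0 and the summed counts were 15473 and 16011, a log2 ratio of 0.06 (interval 0.03 to 0.09). The largest subunit POLR2A, whose carboxy-terminal domain is phosphorylated through the transcription cycle, had 5316 counts under control siRNA and 5833 under HNRNPF siRNA (0.14, interval 0.09 to 0.20). The second largest, POLR2B, had 5841 and 5495 counts (-0.08, interval -0.13 to -0.02). The catalytic partners therefore lay on opposite sides of 0 by count ratio. With the trend with GC content and length across genes removed, POLR2B lay near 0, at -0.009, and POLR2A at 0.10. The count of POLR2A per count of POLR2B was 0.910 in the control and 1.06 in the siRNA library, a log2 difference of 0.22 (interval 0.15 to 0.30, from counting error).

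POLR2I, the zinc-ribbon subunit of polymerase II that acts in RNA cleavage and start-site selection, had the highest count ratio of all subunits, which was 0.07 with the GC and length trend removed. It had 169 estimated counts under control siRNA and 216 under HNRNPF siRNA, 1.28-fold higher (0.36, interval 0.07 to 0.66). The gene lies at chr19:36113710-36115346 on the minus strand (GRCh38, GENCODE 29) and its exons overlap those of TBCB on the other strand, which had 992 and 1115 counts (0.18). The labels and table do not say whether reads were counted by strand, so a share of the POLR2I count may belong to TBCB. Exons of 18 judged subunits overlap those of a gene on the other strand in this way. All 3 zinc-ribbon subunits, POLR1H, POLR2I and POLR3K, lay above 0, and their summed counts were 824 and 932 (0.19, interval 0.05 to 0.33). The single intervals of POLR1H and POLR3K include 0. The median of the 3 was 0.16, and 0.07 with the GC and length trend removed.

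The assembly partners POLR2C and POLR2J had 1689 and 1806 counts, and 558 and 662 counts. Their log2 ratios were 0.11 (interval 0.01 to 0.20) for POLR2C and 0.26 (interval 0.09 to 0.42) for POLR2J, and their difference of -0.15 had an interval from -0.34 to 0.04. POLR2J lay just under the fold of 1.2, at 1.19, while POLR2J3 lay just over it, at 1.21. The stalk pair POLR2D and POLR2G, which binds RNA as it leaves the enzyme, had 764 and 837 counts (0.14, interval 0.00 to 0.29), and 1136 and 1162 counts (0.04, interval -0.08 to 0.16).

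POLR2J lies in a cluster of near-identical copies on chromosome 7, in which reads can be assigned to more than 1 gene, and none of its 5 genes had whole-number counts in both libraries. POLR2J3 had 420 counts under control siRNA and 503 under HNRNPF siRNA (0.27, interval 0.08 to 0.46). A second entry with that symbol, ENSG00000285437, had 167 and 196 counts (0.24, interval -0.06 to 0.55). POLR2J2 had 244 and 233 counts (-0.06, interval -0.32 to 0.21). ENSG00000267645, which carries the symbol POLR2J2 and overlaps exons of POLR2J2 and UPK3BL1, had 175 and 217 counts (0.32, interval 0.03 to 0.62) and was 1.25-fold higher. The 4 relatives summed to 1006 and 1149 counts, with a ratio of 0.20 (log2, interval 0.08 to 0.33). How far reads of POLR2J were divided among its copies was not tested.

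POLR2M, known as Gdown1, binds polymerase II and makes its activity depend on Mediator. It had 2107 estimated counts under control siRNA and 1787 under HNRNPF siRNA, a log2 ratio of -0.23 (interval -0.32 to -0.13). It had the lowest count ratio of the polymerase II genes. It shares its locus at chr15:57706629-57782762 with MYZAP, which had 117 and 64 counts (-0.84), and with the joined transcript GCOM1, which had 23.7 and 36.4 counts.

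The 5 small subunits built into all of the polymerases had a median of 0.14, and 4 of them lay above 0. With the GC and length trend removed, 3 lay above 0 and the median was 0.0006. Their summed counts were 6178 and 6678, a log2 ratio of 0.12 (interval 0.07 to 0.17). POLR2L, a small zinc-binding subunit that anchors the assembly pair in the core, had 925 estimated counts under control siRNA and 1149 under HNRNPF siRNA, 1.25-fold higher (0.32, interval 0.20 to 0.45). It lies at chr11:837356-842545 on the minus strand, and CD151, whose exons overlap it on the other strand, had 2635 and 2376 counts (-0.14), the opposite direction. POLR2E, at the downstream DNA, had 2074 and 2275 counts (0.14, interval 0.06 to 0.23). POLR2F had 711 and 791 counts (0.16, interval 0.02 to 0.31). POLR2H and POLR2K differed by less than their counting error, with 1278 and 1304 counts (0.04) and 1190 and 1159 counts (-0.03).

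The 10 judged subunits found only in polymerase III were divided, 4 above 0 and 6 below, with a median of -0.07. Their summed counts were 8226 in the control and 8080 in the siRNA library, a log2 ratio of -0.01 (interval -0.06 to 0.03) that became 0.01 when scaled by total counts. Set against the other enzymes, the summed polymerase III counts were lower, with a log2 difference of -0.12 against polymerase I (interval -0.18 to -0.06). The difference was -0.08 against the 7 core subunits of polymerase II (interval -0.13 to -0.02) and -0.14 against the subunits common to every enzyme (interval -0.20 to -0.07). Between polymerase I and the polymerase II core the difference was 0.04, with an interval from -0.01 to 0.09 that includes 0. These intervals cover counting error only. The polymerase III sum leaves out CRCP, a polymerase III subunit outside the symbol rule, which had 1273 and 1435 counts (0.18). Its ratio lay above that of the polymerase III sum, so including CRCP would make each of these differences smaller. The differences with CRCP included were not computed. Whether the interval against the polymerase II core would then still leave out 0 is therefore not known.

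The catalytic subunit POLR3A had 1297 estimated counts under control siRNA and 1144 under HNRNPF siRNA (-0.17, interval -0.29 to -0.05). Its partner POLR3B had 820 and 781 counts (-0.06, interval -0.20 to 0.08). Neither lay above its control, and their difference of -0.11 had an interval from -0.29 to 0.07. Over the 3 enzymes, the 6 catalytic subunits were thus evenly divided around 0, with POLR1A, POLR1B and POLR2A above it.

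POLR3D and POLR3E form the TFIIF-related pair of polymerase III, which acts in termination and reinitiation. POLR3D had 726 counts under control siRNA and 608 under HNRNPF siRNA (-0.24, interval -0.40 to -0.09), whereas POLR3E had 1098 and 1253 counts (0.20, interval 0.08 to 0.32). The partners lay on opposite sides of 0, and the log2 difference between them was -0.45 (interval -0.64 to -0.25).

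POLR3C, POLR3F and either POLR3G or POLR3GL form a trimer found only in polymerase III, which contacts the initiation factors. POLR3C had 1378 and 1271 counts (-0.11, interval -0.22 to 0.01), and POLR3F had 546 and 511 counts (-0.08, interval -0.26 to 0.09). POLR3G, known from pluripotent and tumour cells, had 872 counts under control siRNA and 958 under HNRNPF siRNA (0.15, interval 0.01 to 0.28). POLR3GL, its alternative in most differentiated cells, had 305 and 242 counts, 1.25-fold lower (-0.32, interval -0.57 to -0.07), and lies at chr1:145964702-145978848 on the plus strand. POLR3GL was the lowest of all subunits by count ratio. The count of POLR3G per count of POLR3GL was 2.86 in the control and 3.96 in the siRNA library, a log2 difference of 0.47 (interval 0.19 to 0.75).

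Per length, that shift was smaller. In the authors' FPKM, POLR3G had 19.9 in the control and 18.7 in the siRNA library, and POLR3GL had 12.7 and 10.3. POLR3G thus made up 61.1% of the FPKM of the alternative pair in the control and 64.4% in the siRNA library. POLR3G has exons overlapping MBLAC2 on the other strand, which had 310 and 294 counts (-0.07).

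CRCP, a polymerase III subunit that the symbol rule leaves out, had 1273 and 1435 counts (0.18, interval 0.07 to 0.29). POLR3K, the RNA cleavage subunit, had 319 and 344 counts (0.12, interval -0.10 to 0.34).

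By level per length in the control library, the subunits spanned from 5.29 FPKM for ENSG00000267645 to 76.1 FPKM for POLR2B. The common subunits stood highest, with a median of 61.1 FPKM and a range from 47.6 for POLR2F to 69.1 for POLR2H. The polymerase II core had a median of 40.8 FPKM and polymerase I one of 20.4 FPKM. Polymerase III subunits had a median of 12.7 FPKM and none exceeded 26.4 FPKM. POLR3A and POLR3B, at 9.64 and 9.49 FPKM, stood below POLR1A and POLR1B, at 20.4 and 38.1 FPKM, and below POLR2A and POLR2B, at 40.8 and 76.1 FPKM. Between level and log2 count ratio, Spearman's rho was -0.01 over the 35 subunits and -0.19 over all judged genes. Without the relatives of POLR2J, which had low levels, rho over the subunits was 0.18. These values are across genes, which are not independent replicates.

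**Figure D2:**
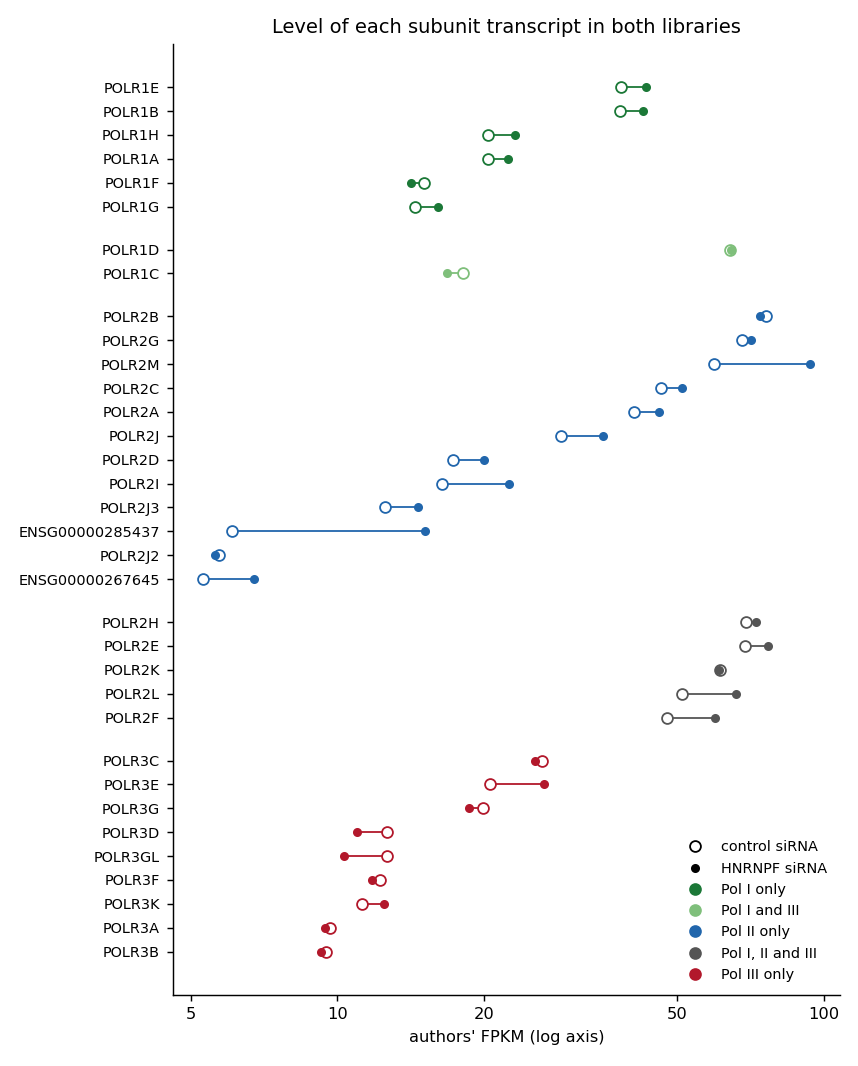
The authors' FPKM of 34 judged subunits on a log axis, with open circles for the control library and filled circles for the HNRNPF siRNA library, 1 library each, grouped by enzyme. Subunits common to every polymerase lie between 47.6 and 69.1 FPKM in the control library, and polymerase III subunits at or under 26.4 FPKM.

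The direction of 3 subunits depended on whether counts or FPKM were compared. For POLR2M the log2 count ratio was -0.23, while the log2 fold change in the authors' deposited table was 0.66. For POLR3G the count ratio was 0.15 and the fold change in the authors' deposited table -0.09. For POLR1D, with a count ratio of -0.10, the authors' deposited table gave 0.01. FPKM divides by a length, and the length that a count and its FPKM imply can be read from the table.

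For POLR2M the implied length was 1715 bases in the control and 947 in the siRNA library, and for ENSG00000285437 it was 1331 and 643 bases. POLR3G went the other way, with 2121 and 2547 bases. These are lengths assigned by the authors' quantification and stand for the mix of transcripts it chose in each library. Relative to all genes, the implied length differed by more than 0.1 on the log2 scale for 7 of the 35 subunits, against 20.9% of judged genes, and by more than 0.5 for 2, against 1.80%. POLR3E, POLR2F and POLR3A were also among the 7. Which transcripts of POLR2M were present was not tested, as the table gives no transcript level.

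**Figure D3:**
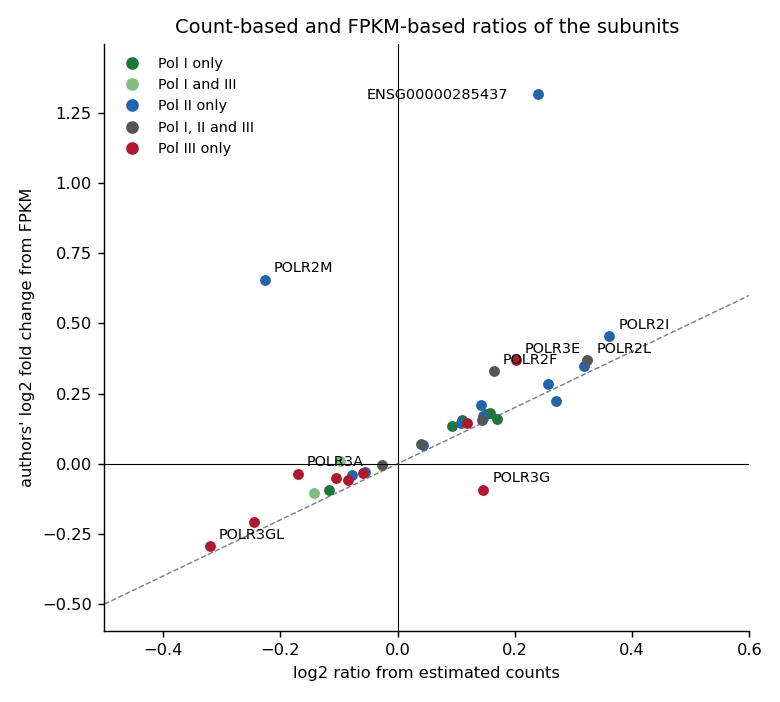
Log2 ratio from estimated counts (horizontal) against the log2 fold change of the authors' deposited table, made from FPKM (vertical), for 34 judged subunits; the dashed line marks equal values. Most subunits lie near the line, while POLR2M (-0.23 and 0.66) and ENSG00000285437 (0.24 and 1.32) lie far above it and POLR3G (0.15 and -0.09) below.

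The base composition of the transcripts moved with the ratios. Over the 35 subunits, the log2 ratio correlated with the GC content of the annotated transcript with Spearman's rho of 0.56. Without the 4 relatives of POLR2J rho was 0.49, and over 12228 judged genes it was 0.27. All are correlations across genes from 1 pair of libraries. Of the 20 subunits with at least 50% GC, 17 lay above 0 with a median of 0.15, where all such genes had a median of 0.06. Of the 15 with less GC, 5 lay above 0 with a median of -0.08, where all such genes had a median of -0.05.

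POLR2I and POLR2L had a GC content of 59.9% and 60.1%, while POLR2B and POLR2M had 40.8% and 37.6%. POLR3G departed from this order, with the lowest GC content of all subunits, 34.0%, and a ratio of 0.15. The median GC content was 48.5% for polymerase III, 50.7% for polymerase I, 54.3% for polymerase II and 59.4% for the common subunits. For the 7 core subunits of polymerase II it was 50.8%. Once the dependence on GC content and length across all judged genes was subtracted, the median over the subunits was 0.04 and 20 lay above 0. The medians became 0.06 for polymerase I, 0.10 for polymerase II, 0.00 for the common subunits and -0.02 for polymerase III, and no subunit was 1.2-fold higher. The gap between the medians of polymerases II and III was 0.22 before and 0.12 after. The part that base composition has in the ratios was not tested beyond these values.

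**Figure D4:**
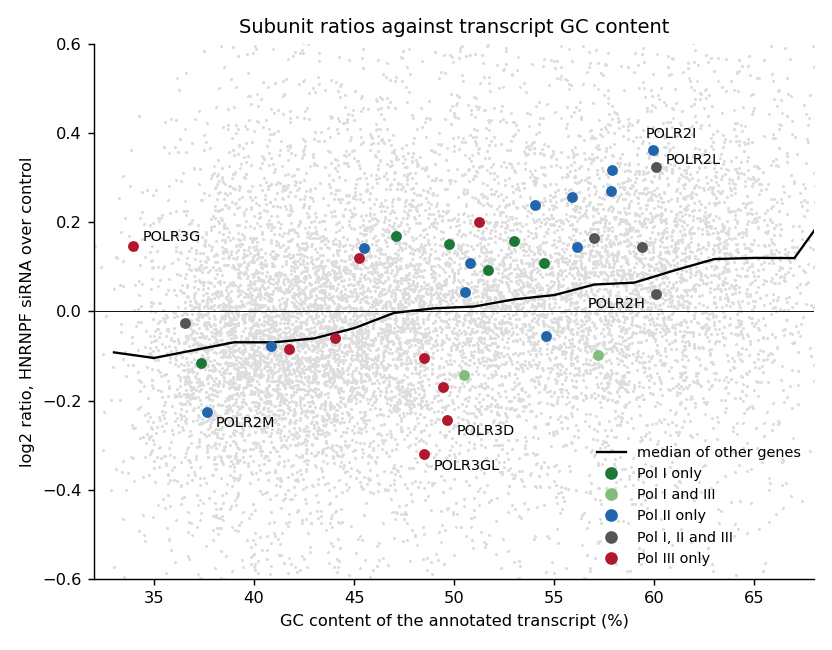
Log2 ratio (HNRNPF siRNA over control) against the GC content of the annotated transcript for 34 judged subunits, colored by enzyme, with other judged genes in gray and their binned median as a black line; genes beyond the vertical axis are not drawn. POLR2I and POLR2L lie at the upper right, at 59.9% and 60.1% GC, and POLR3G at the far left, at 34.0% GC, lies above the line.

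A heptamer in 3' untranslated regions (UTRs), GGAAGAA, is shown because its carriers over all genes tended to be lower in these same libraries, from which it had been picked. Of 32 subunits with a searched 3' UTR, 5 carried it (15.6%), against 19.9% of 12111 judged genes. Their sites, 29 bases each from GENCODE 29 on GRCh38 and written as the DNA of the transcript strand with the heptamer in capitals, lay in genes on both sides of 0.
POLR3A 3' UTR, chr10:77975165-77975193, minus strand: tgtacctgcttGGAAGAAataaaaatacg
POLR2M 3' UTR, chr15:57715231-57715259, plus strand: gtcttcccttaGGAAGAAcgttatctctc
POLR3E 3' UTR, chr16:22333730-22333758, plus strand: tctaagcccaaGGAAGAAgggcggaacca
POLR2D 3' UTR, chr2:127847665-127847693, minus strand: tagatactaaaGGAAGAAttaaaccgctg
POLR2M (-0.23) and POLR3A (-0.17) were lower and POLR3E (0.20) and POLR2D (0.14) higher, the last with 3 copies. The fifth carrier, POLR3D (-0.24), also holds 3 copies, which are not shown. The median log2 ratio was -0.17 over these 5 subunits and 0.11 over the 27 without the heptamer, against -0.08 and 0.01 over all judged genes with and without it. With the GC and length trend removed these medians were -0.15 and 0.03, against -0.06 and -0.004. Over all judged genes, carriers had a median GC content of 45.1%, against 49.8% without the heptamer. As it was picked from these libraries, this order is a description only. By the fold change of the authors' deposited table, made from FPKM, the order turned, with medians of 0.21 over the 5 and 0.08 over the 27. Over all judged genes it did not turn, with medians of -0.05 with the heptamer and 0.04 without it. CRCP carried 1 copy and had a ratio of 0.18. Among the 7 polymerase III subunits other than the 3 carriers, 4 lay below 0, with a median of -0.06 and a log2 ratio of summed counts of 0.00. A match is a description of the letters and not evidence that anything binds there.

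The promoter of POLR3GL, the lowest subunit by count ratio, is shown from RefSeq. It runs from 250 bases before to 50 after the start on GRCh38.p14, 5′ to 3′ on the gene's strand, with CCGGAA and its reverse complement TTCCGG, the core letters that ETS factors bind, in capitals.
POLR3GL promoter, chr1:145964440-145964739, plus strand: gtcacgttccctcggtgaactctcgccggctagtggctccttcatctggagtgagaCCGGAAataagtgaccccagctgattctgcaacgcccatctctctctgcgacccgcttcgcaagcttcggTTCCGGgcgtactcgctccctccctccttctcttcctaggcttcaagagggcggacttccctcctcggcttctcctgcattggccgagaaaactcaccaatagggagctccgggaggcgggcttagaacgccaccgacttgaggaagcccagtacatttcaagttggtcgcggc
It was 59.3% GC with 22 CpG dinucleotides and held 2 such hexamers. Of the 24 judged subunits with an entry, 12 held CCGGAA on either strand, against 17.6% of all 27305 promoters and 30.7% of those of judged genes. They included both higher and lower subunits. The E-box CACGTG, which is its own reverse complement, was in 4 of the 24 promoters (16.7%), against 10.2% of those of judged genes. GCGCATGCG, a core of the NRF1 motif, was in 2 of the 24 (8.33%), POLR2F and POLR2J2, against 3.74% of those of judged genes.

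Factors that work with the polymerases were taken by the enzyme they serve. TBP was counted in the lists of polymerase I factors, polymerase II general factors and polymerase III factors. Of 11 polymerase I factors 9 lay below 0, where 49.8% of all judged genes did, with a median of -0.14. RRN3, which brings polymerase I to the promoter, had 2046 and 1673 estimated counts (-0.28, interval -0.37 to -0.19). TAF1A, a subunit of the promoter selectivity factor, had 544 and 448 counts (-0.27), and its fellow subunit TAF1C had 566 and 661 counts (0.23). The median of this list was -0.09 by the FPKM ratio and -0.08 with the GC and length trend removed.

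Of 31 general factors of polymerase II, 20 lay below 0, with a median of -0.06 that became 0.01 by the FPKM ratio and -0.13 without uncertain genes. TAF11, GTF2A1 and TAF8 had the largest ratios in size. The TFIID subunit TAF11 had 571 and 407 counts (-0.48), the TFIIA subunit GTF2A1 had 3372 and 2498 counts (-0.42), and the TFIID subunit TAF8 had 908 and 688 counts (-0.39). Pausing and elongation factors were balanced, with 13 above and 12 below 0 (median 0.01). Among them the super elongation complex subunit ELL2 had 2295 and 1803 counts (-0.34), its relative ELL 336 and 387 counts (0.21), and LEO1 of the PAF complex 1936 and 1549 counts (-0.31).

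Among 12 readers and phosphatases of the POLR2A carboxy-terminal domain, 6 lay above and 6 below 0. RPRD1A, a reader of that domain, had 2313 counts under control siRNA and 1481 under HNRNPF siRNA, 1.55-fold lower (-0.63, interval -0.73 to -0.54). By FPKM it had 36.4 and 28.4, a log2 fold change of -0.36 in the authors' deposited table. The phosphatases CTDSP1 and CTDSPL had ratios of -0.23 and 0.20.

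Of 17 polymerase III factors 7 lay above and 10 below 0 (median -0.02), a median that became 0.01 when scaled by total counts. The 3 largest ratios belonged to subunits of SNAPc, which also serves polymerase II at small nuclear RNA genes. SNAPC1 had 2145 and 2856 counts (0.42, interval 0.34 to 0.51), SNAPC4 had 721 and 854 counts (0.25), and SNAPC5 had 173 and 205 counts (0.25, interval -0.04 to 0.56). The remaining SNAPc subunits, SNAPC2 and SNAPC3, lay below 0, at -0.11 and -0.20.

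Among 16 assembly and import factors, 6 lay above and 10 below 0 (median -0.03, and 0.0001 when scaled by total counts). URI1, a scaffold of the prefoldin-like complex that helps assemble polymerases and binds POLR2E, had 2227 counts under control siRNA and 1189 under HNRNPF siRNA, 1.86-fold lower (-0.89, interval -0.997 to -0.792). PFDN2, a prefoldin of the same complex, had 780 and 969 counts (0.32, interval 0.19 to 0.46). SLC7A6OS, whose yeast relative brings polymerase II into the nucleus, had 1227 and 990 counts (-0.30). Of 8 genes of mitochondrial transcription 4 lay above and 4 below 0, with a median of -0.10 that became 0.01 by the FPKM ratio. POLRMT, the separate mitochondrial polymerase, had 836 and 833 counts (0.01), and the termination factor relatives MTERF1, MTERF2, MTERF3 and MTERF4 had ratios of -0.30, -0.23, -0.27 and 0.01.

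**Figure D5:**
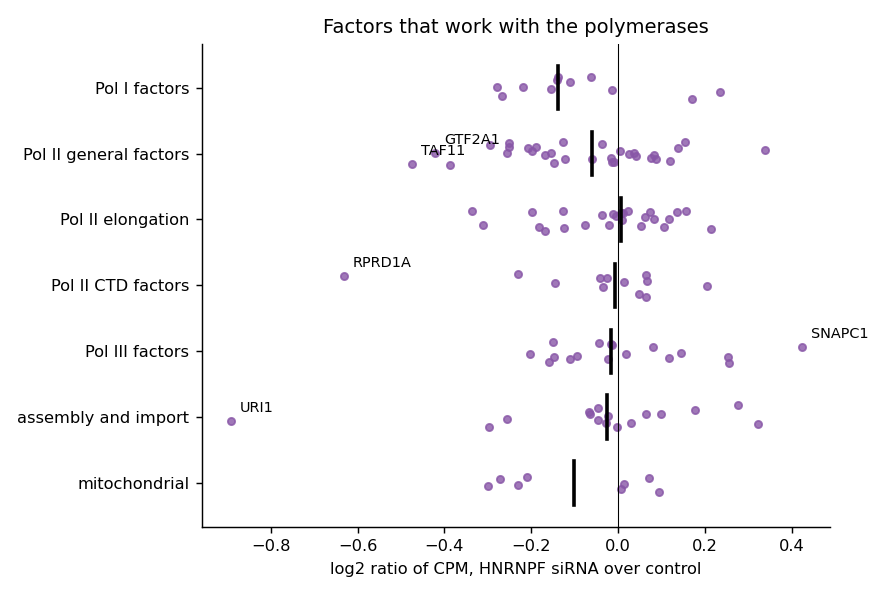
Log2 ratio of CPM (HNRNPF siRNA over control) for the judged genes of 7 lists of factors that work with the polymerases or with mitochondrial transcription, 1 point per gene, with a bar at each median. The median of the polymerase I factors is -0.14, and URI1 (-0.89) and RPRD1A (-0.63) stand farthest to the left.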

How the data were processed

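MDA-MB-231 poly(A) RNA was sequenced in 1 library per group, 2 in all. The authors deposited estimated counts (RSEM-type expected counts), unscaled, and FPKM for each library, per the file headers, with a log2 fold change that equals the log2 ratio of their FPKM. Per the submitters' processing notes, the tools were RSEM, StringTie 1.3.1, HISAT2 and fastp 0.18.0, with build GRCh38, and no roles are stated. The annotation, and whether counting used strand, are not given in the sources used here. Counts were not whole in 11.6% and 12.0% of genes, at a tolerance of 1e-06. The siRNA column, named si848, was assigned because the table sets the named control against the HNRNPF siRNA. Another 2 columns of per-library means were not used.

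Counts were rounded and scaled by TMM (edgeR 4.0.16, R 4.3.3) to effective libraries of 20471293 and 20314875. Log2 ratios of CPM used a prior count of 2. Genes with 20 counts in either library were judged. Ratio intervals were exact (95%, Clopper-Pearson, scipy 1.17.1, Python 3.11.15), taken on the siRNA library's part of a gene's summed counts, and intervals of differences between genes use the normal approximation to the log odds ratio. They cover counting error only. No test was made with so few libraries, the planned quasi-likelihood test included, and genes were counted at folds of 1.2 and 1.5. The code was tested on simulated data.

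GENCODE 29 supplied the GC content of transcripts and their 3' UTRs, and RefSeq GRCh38.p14 the promoters, in which 24 of the 35 judged subunits had an entry. The 3' UTR of POLR2A was not searched, since its annotated transcript carries a sequence-error tag. Those of POLR2J3 and ENSG00000267645 were not searched either. Named were the other subunits, plus, of each factor list, the 3 genes with the largest log2 ratio in size at 50 counts or more. The values of 1 subunit are not reported here and are not drawn, though counts and medians include it. Other names (POLRMT, CRCP, and genes overlapping a subunit) were added. Subunits and lists were chosen with earlier results of these data known. Alternatives were total-count scaling, DESeq2 1.42.0 size factors, a minimum of 100 counts or none, a prior count of 0.5, the authors' FPKM ratio with 0.1 added, removal of the GC and length trend, and leaving out uncertain subunits.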

Additional observations from a re-analysis of the deposited data

How the results depend on the processing

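No paired analysis was possible because each group has 1 library, and for the same reason no replicate could be left out. Total-count scaling, DESeq2 size factors, a minimum of 100 counts, no minimum and a prior count of 0.5 moved no value beyond its counting error and no count past 1.5 times, although the subunits at least 1.2-fold higher were 6 with total counts and 3 with DESeq2 size factors, against 4. The polymerase III median stayed below 0 under every alternative, between -0.08 and -0.02.

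With the FPKM ratio, the summed log2 ratio was 0.25 for polymerase II (0.04 from counts) and 0.17 for the common subunits (0.12). Then 8 subunits passed 1.2-fold upward and 2 passed 1.5-fold, and POLR3G (-0.0915), POLR2M (0.65) and POLR1D (0.01) changed sign. With the GC and length trend removed, the median of the common subunits was 0.0006, 0 subunits were 1.2-fold higher, and POLR2F (-0.022), POLR2H (-0.14), POLR2G (-0.06) and POLR2K (0.0006) changed sign. Leaving out subunits with a shared symbol, near-identical copies or counts that are not whole left 23 subunits, with a summed polymerase II ratio of 0.13. The polymerase II genes left out were POLR2B and POLR2M, both lower, and POLR2J with its relatives, all higher except POLR2J2. POLR3GL, the only subunit at least 1.2-fold lower, was left out for its shared symbol. Of the subunits kept, 14 lay above 0, 2 passed 1.2-fold upward and 0 downward. The intervals of 9 lay above and 2 below a ratio of 1, out of this smaller number of genes. Counting error limits most the subunits with few counts, such as POLR2I and ENSG00000285437, and a spread between cultures could not be measured.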
